A study of Mus musculus with 20 samples.

Results

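The semaphorins, plexins and neuropilins are the ligands, receptors and co-receptors of a guidance system for growing axons, dendrites and blood vessels. The genes were chosen by their symbols, as the semaphorins of classes 3 to 7 with a letter from a to g, the plexins A to D and both neuropilins. This gave 31 of the 47729 genes in the files: 20 semaphorins, 9 plexins and 2 neuropilins. All 31 passed the filter on low counts in every comparison.

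Class 3 semaphorins are secreted, classes 4 to 6 span the membrane, and *Sema7a* encodes a protein held on the membrane by a lipid anchor. Most class 3 semaphorins need a neuropilin to bind and a class A plexin to pass the signal into the cell, where plexins act on small GTPases and the cytoskeleton. SEMA3E is an exception, since it binds PLXND1 without a neuropilin. Membrane-bound semaphorins bind plexins directly. In the developing forebrain the system steers callosal, thalamocortical and hippocampal axons, shapes dendrites and prunes transient projections.

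The study asked what additional *Ube3a* does to transcripts in the developing brain. RNA was taken from the hippocampus and the cortex of 5 WT and 5 Ube3aOE pups of the C57Bl/6J strain on postnatal day 7, which gave 4 groups of 5 libraries. Both tissues of a pup were sequenced, so the 20 libraries come from 10 mice, numbered 1 to 5 (WT) and 6 to 10 (Ube3aOE). Ube3aOE mice carry extra *Ube3a* as a transgene built from a bacterial artificial chromosome that spans the gene and its surroundings, which was designed to follow the gene's own expression rather than a promoter of one cell type. The labels name no transgene line, and 3 of the 5 WT and 2 of the 5 Ube3aOE pups were labelled female. Because whole tissue was used, fewer cells of a type and less RNA per cell cannot be told apart in any value given here.

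The libraries held 14191093 to 16752326 reads counted on genes, with a median of 16295195. *Ube3a* was higher in Ube3aOE than in WT mice by 1.32 ± 0.11 (SE) on the log2 scale in hippocampus (adjusted *P* = 0.000441) and by 1.31 ± 0.11 in cortex (adjusted *P* = 0.000822). All 8 hippocampus markers were higher in hippocampus. Of 8 neocortex markers 6 were higher in cortex, 1 was lower and 1 did not pass the test. Several libraries held more of the markers of a neighboring tissue than the others of their group. The cortex libraries of Ube3aOE mice 8 and 9 summed to 1967 and 1993 CPM (read counts scaled to library size) over the neocortex list, against 2401 to 2914 in the other 8, and to 204 and 209 CPM over the hippocampus list, against 90.1 to 133. The hippocampus libraries of WT mouse 2 and Ube3aOE mouse 9 reached 1264 and 743 CPM over the neocortex list, against 409 to 522 in the rest. That of mouse 9 also reached 514 CPM over the striatum list, against 42.5 to 67.5. The thalamus list reached 717, 738 and 1484 CPM in the hippocampus of mice 4, 7 and 10, against 242 to 335 in the rest. The choroid plexus list reached 1969.6 CPM in the hippocampus of mouse 7 and 350 CPM in that of mouse 9, against 9.93 to 33.6 in the rest. For many of the results that rest on these libraries, values without some or all of them are also given.

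Levels of different genes were compared only as CPM per kilobase (kb) of exon, where the exons of all annotated transcripts of a gene were merged. On this scale *Sema7a* had the highest level of the 31 genes in both tissues, with 103 ± 25.6 (SD, n = 10) in cortex and 60.3 ± 7.58 in hippocampus. *Plxna1*, a class A plexin that serves many semaphorins, came next with 49.3 ± 7.00 in cortex and 41.9 ± 3.91 in hippocampus. The ranges of the means plus or minus 1 SD of *Sema7a* and *Plxna1* did not meet in either tissue. *Plxnd1* (34.4 ± 5.46) and *Sema6b* (31.6 ± 2.59) followed in cortex and overlapped within their SD. At the other end, *Plxnb3*, a plexin known from oligodendrocytes, had 0.431 ± 0.157 in cortex and 0.769 ± 0.223 in hippocampus, and *Sema3b*, *Sema3d* and *Sema3g* stayed between 0.530 and 0.791 in both tissues. These 4 genes overlapped within their SD in cortex, apart from *Plxnb3* and *Sema3d*. The class 3 ligands were thus spread from 0.533 to 13.9 in hippocampus, whereas the 6 class 4 ligands lay between 5.10 and 18.5. The neuropilins ranked sixth (*Nrp2*, 18.0 ± 2.84) and seventh (*Nrp1*, 17.7 ± 3.52) in hippocampus, where they differed by less than 1 SD. Lengths from the longest transcript gave *Nrp1* 47.6 in place of 17.7, because its longest annotated transcript has 3.645 kb and its merged exons have 9.785 kb. The order thus depended on the length used. With the longest transcript *Nrp1* lay above *Plxna1* (42.0) in hippocampus, and *Sema4g* (37.9) lay above *Plxnd1* (36.4) in cortex.

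**Figure D1:**
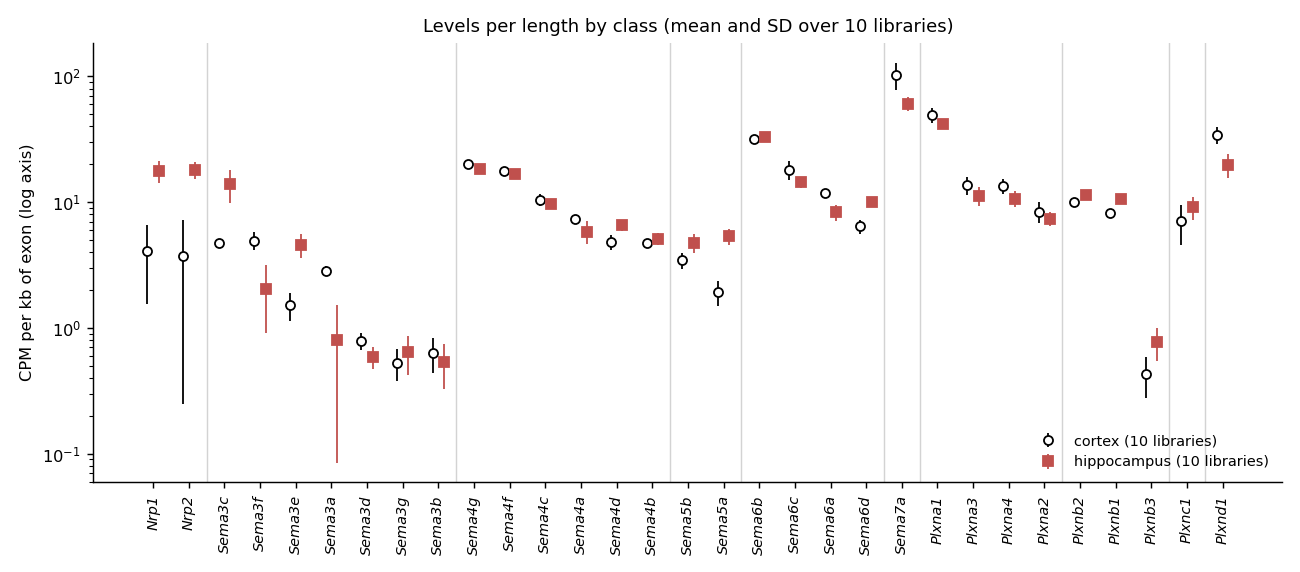
Level of each gene in CPM per kb of exon, on a log axis, in cortex (open circles) and hippocampus (filled squares), as the mean with the SD over 10 libraries. Grey lines part the classes, from the neuropilins on the left through ligand classes 3 to 7 to plexins A to D, and *Sema7a* lies highest at 103 in cortex.

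The difference between the regions was tested first, over all 20 libraries. Each mouse gave both tissues, but this test held no term for the mouse. A fit with the mouse as a block was an alternative. Of the 31 genes 23 differed between hippocampus and cortex at an adjusted *P* value under 0.05, beside 50.9% of the 15661 genes tested. They split into 11 that were higher in hippocampus (25.3% of all genes) and 12 that were higher in cortex (25.6% of all genes). Of the former, 7 changed by more than 0.5 on the log2 scale, beside 12.0% of all genes, and of the latter 5 did, beside 7.24%. The median of the absolute log2 fold change was 0.37 over the 31 genes and 0.20 over all genes tested. The signed median was -0.08 over the 31 genes and -0.01 over all genes. For 7 of the 31 genes every hippocampus library lay above every cortex library (5.64% of all genes), and for 0 did every hippocampus library lie below (3.65% of all genes). The 7 were *Nrp1*, *Nrp2*, *Sema3c*, *Sema3e*, *Sema5a*, *Sema6d* and *Plxnb1*. By class, both neuropilins, both class 5 ligands and all 3 class B plexins were higher in hippocampus, and 3 of 4 class A plexins were higher in cortex, the exception being *Plxna2*, which did not pass the test. Marker lists of other cells also differed between the regions. Microglia markers were higher in hippocampus for 5 of 6 genes (84.1 to 131 CPM summed in cortex, 102 to 172 CPM in hippocampus), Cajal-Retzius cell markers for 5 of 6 (109 to 225 and 109 to 252 CPM) and GABAergic neuron markers for 2 of 6, while 3 of 7 markers of meninges and fibroblasts and 1 of 7 of endothelial and mural cells were higher in cortex. Of the neighboring tissues, 5 of 6 thalamus markers and 5 of 6 tested choroid plexus markers were higher in hippocampus. Of 6 striatum markers 1 was higher in hippocampus and 2 were higher in cortex. The thalamus list summed to 116 to 206 CPM in cortex and 242 to 1484 CPM in hippocampus. The part of all these lists in the differences of the 31 genes was not tested. The 20 ligands split into 6 higher in hippocampus (25.3% of all genes), 8 higher in cortex (25.6% of all genes) and 6 that did not pass the test.

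**Figure D2:**
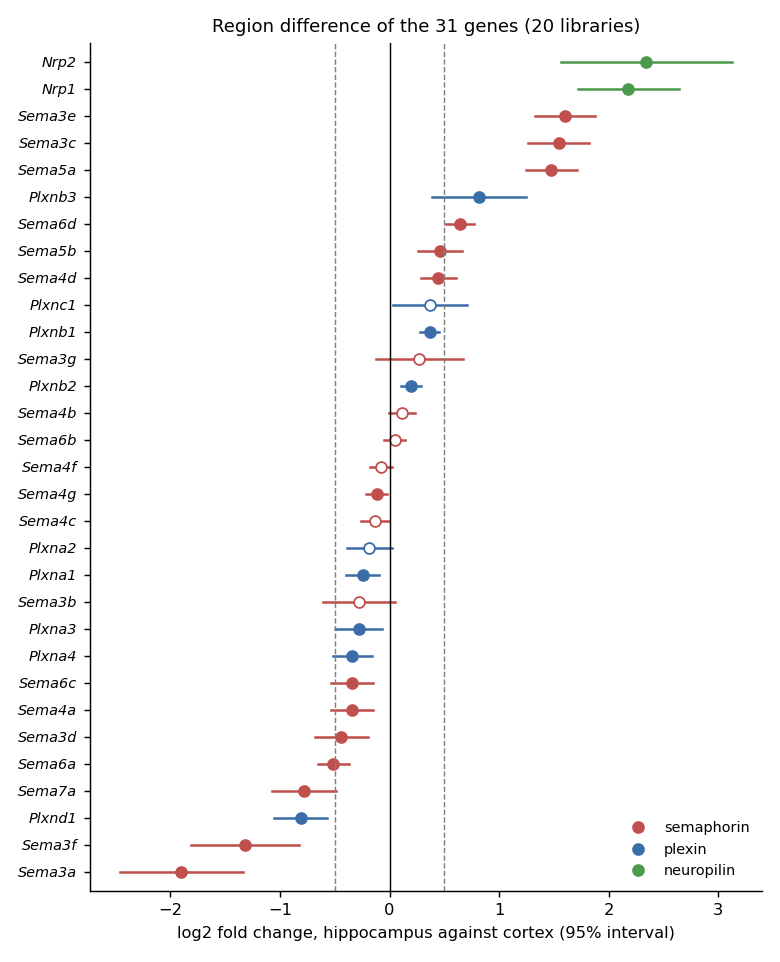
The log2 fold change of hippocampus against cortex over 20 libraries for each of the 31 genes, with its 95% interval; filled points have an adjusted *P* value under 0.05 and dashed lines mark 0.5 and -0.5. The neuropilins lie highest, at 2.34 and 2.18, and *Sema3a* lies lowest, at -1.90.

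The neuropilins differed most. *Nrp1* encodes the co-receptor that SEMA3A needs and also binds VEGF, and *Nrp2* encodes the co-receptor of SEMA3F. *Nrp1* had 151.6 to 206 CPM in WT hippocampus and 131 to 229 CPM in Ube3aOE hippocampus. In WT cortex its 5 values were 30.4, 23.5, 29.5, 26.4 and 31.1 CPM, and in Ube3aOE cortex 30.7, 29.4, 95.4, 75.4 and 26.4 CPM for mice 6 to 10. Hippocampus and cortex did not overlap, and the cortex values of mice 8 and 9 stood above the other 8. The regions differed by 2.18 ± 0.22 (SE) on the log2 scale, which is 4.53-fold (adjusted *P* = 3.31e-07).

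*Nrp2* had 177 to 249.9 CPM in WT hippocampus and 164 to 273 CPM in Ube3aOE hippocampus. Its cortex values were 22.7, 40.4, 46.2, 17.7 and 21.3 CPM in WT mice, and 18.5, 19.0, 126, 114 and 16.2 CPM in Ube3aOE mice 6 to 10. The regions again did not overlap, and mice 8 and 9 stood apart as for *Nrp1*. The difference was 2.34 ± 0.37 on the log2 scale, or 5.07-fold (adjusted *P* = 5.51e-05). Without the cortex of mice 8 and 9, which also held more of the hippocampus list, the difference was 3.20 for *Nrp2* and 2.60 for *Nrp1*. Without all 7 libraries named above it was 3.38 and 2.83. The part of the neighboring tissue in the values of mice 8 and 9 was not tested further.

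**Figure D3:**
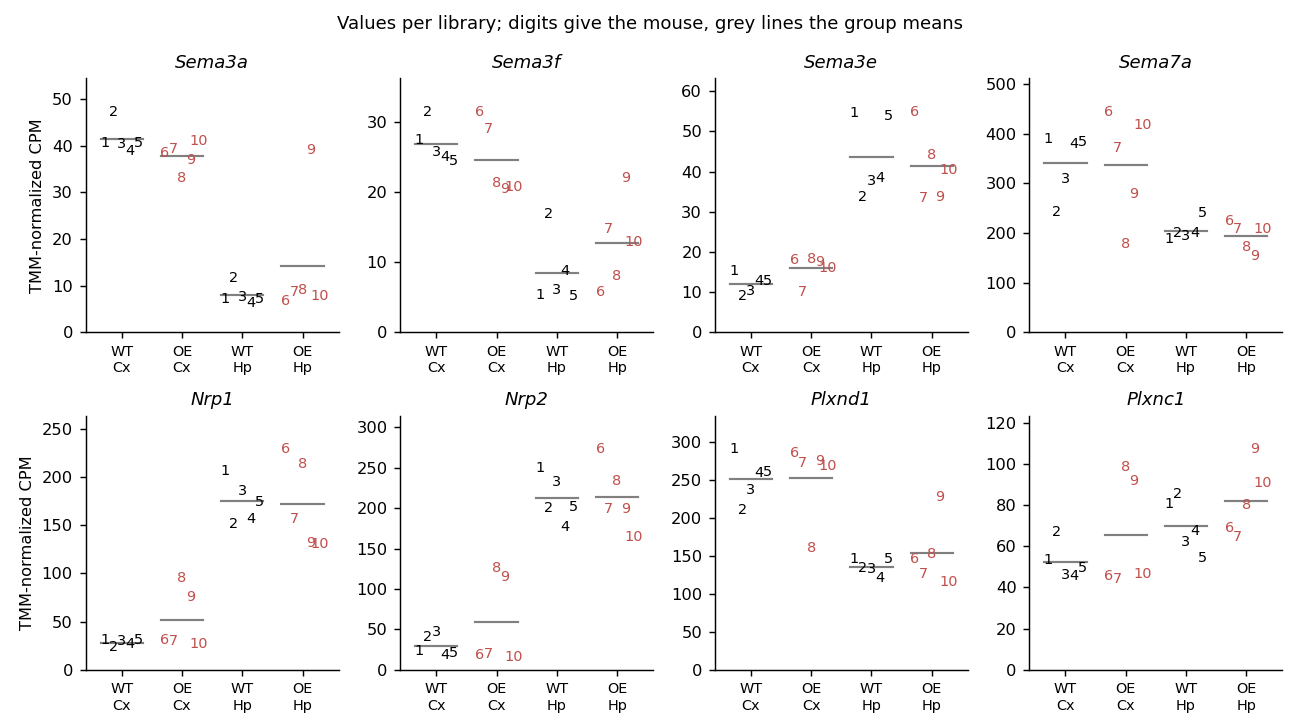
TMM-normalized CPM of 8 genes in each library, on a linear axis from 0, with the mouse number as the symbol (black, WT; red, Ube3aOE), grey lines for group means, Cx for cortex and Hp for hippocampus. Mice 8 and 9 stand above the other cortex libraries for *Nrp1*, *Nrp2* and *Plxnc1*, and mouse 9 stands at 39.1 among the hippocampus libraries for *Sema3a*.

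Among the secreted class 3 ligands, 2 were higher in hippocampus (25.3% of all genes), 3 were higher in cortex (25.6% of all genes) and 2 did not pass the test. *Sema3a*, the founding repellent of the family, had 33.0 to 47.3 CPM in cortex (median 39.8) and 6.28 to 39.1 CPM in hippocampus (median 7.62). All but 1 of the 10 hippocampus libraries lay between 6.28 and 11.7, and the exception, that of mouse 9, lay within the range of cortex. It fell by 1.90 ± 0.27 on the log2 scale from cortex to hippocampus, a 3.73-fold difference (adjusted *P* = 1.23e-05). Without the hippocampus of mice 2 and 9 the difference was -2.39.

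*Sema3f*, whose product repels hippocampal axons through NRP2 and PLXNA3, had 20.4 to 31.5 CPM in cortex (median 25.4) and 5.22 to 22.1 CPM in hippocampus (median 8.36). The highest hippocampus values were those of mice 9 (22.1 CPM) and 2 (16.9 CPM), and only the former overlapped with cortex. The difference was -1.32 ± 0.23 (adjusted *P* = 0.000132), and -2.14 without the 7 libraries. *Sema3d* followed in the same direction with -0.44 (adjusted *P* = 0.00328), which became -0.26 with an adjusted *P* value of 0.107 when the 7 libraries were left out.

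*Sema3e* and *Sema3c* went the other way. *Sema3e* had 33.4 to 55.0 CPM in hippocampus (median 39.3) and 9.05 to 18.1 CPM in cortex (median 14.1). *Sema3c*, which encodes an attractant for cortical axons, had 59.1 to 149 CPM in hippocampus (median 104) and 31.7 to 39.2 CPM in cortex (median 33.2). The regions overlapped for neither gene, and the spread of *Sema3c* was wide in hippocampus only. The lowest hippocampus values of *Sema3c* were those of mice 9 (59.1 CPM), 2 (66.6 CPM), 10 (76.1 CPM) and 7 (82.5 CPM). These libraries were named above for markers of other tissue, as was that of mouse 4, which had 104 CPM. The part of other tissue in this spread was not tested. *Sema3e* was higher in hippocampus by 1.60 ± 0.13 (adjusted *P* = 1.07e-08) and *Sema3c* by 1.54 ± 0.13 (adjusted *P* = 3.36e-08). *Sema3b* (-0.28, 95% interval -0.61 to 0.05) and *Sema3g* (0.27, 95% interval -0.13 to 0.67) had under 6 CPM in every library and did not pass the test.

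Of these ligands 4, with opposite differences, are neighbors on chromosome 5. *Sema3d*, *Sema3a*, *Sema3e* and *Sema3c* lie in this order on the plus strand within 5.35 megabases of GRCm38, at chr5:12383385-12588948, chr5:13125414-13602565, chr5:14025276-14256689 and chr5:17574281-17730268. The end of *Sema3a* and the start of *Sema3e* are 423 kb apart, and their log2 fold changes were -1.90 and 1.60. Of the other genes of the stretch 5 had enough reads to be tested. Of these 4, *Gm43719*, *Pclo*, *Gm3510* and *Cacna2d1*, were higher in cortex, and *Hgf* did not pass the test. *Gm43719* lies just past the end of *Sema3a* on the same strand. *Gm3510* lies just before the start of *Cacna2d1* on the opposite strand. Whether the reads of these 2 are separate from those of their neighbors was not tested. *Sema3e* and *Sema3c* were the only genes tested in the stretch that were higher in hippocampus. *Sema3b* and *Sema3f* form a second pair on chromosome 9, 72.3 kb apart.

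**Figure D4:**
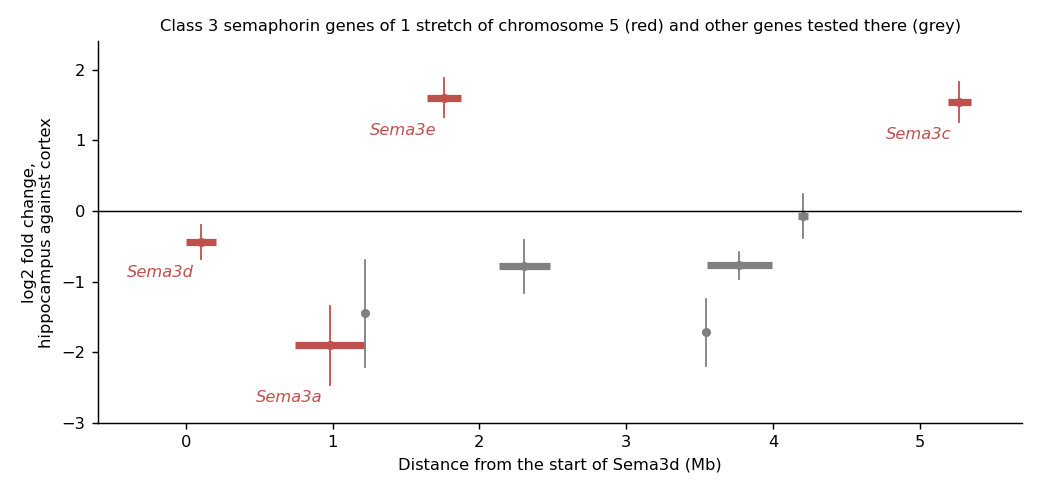
The log2 fold change of hippocampus against cortex, with its 95% interval, against the distance in megabases (Mb) from the start of *Sema3d*, for the class 3 semaphorin genes (red) and the 5 other genes tested in the stretch (grey); thick bars span the genes. *Sema3d* and *Sema3a* lie below 0 and *Sema3e* and *Sema3c* above.

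The upstream sequences of the neighbors and of the neuropilins are shown because neighboring genes moved in opposite directions and the neuropilins moved together. They are the 250 bases before the start that RefSeq gives on GRCm38.p6, all on the plus strand, with each CG dinucleotide in capitals. The table of starts held 26 of the 31 genes. For *Nrp2* only the 218 bases before the first annotated exon are printed, and the window of *Sema3c* is not printed because it lies in an annotated exon. The windows are chr5:12382916-12383165 (*Sema3d*), chr5:13396534-13396783 (*Sema3a*, at a start inside the annotated gene), chr5:14025026-14025275 (*Sema3e*), chr8:128358823-128359072 (*Nrp1*, also inside the annotated gene, in an intron of a transcript that starts further upstream) and chr1:62703067-62703284 (*Nrp2*).
Sema3d: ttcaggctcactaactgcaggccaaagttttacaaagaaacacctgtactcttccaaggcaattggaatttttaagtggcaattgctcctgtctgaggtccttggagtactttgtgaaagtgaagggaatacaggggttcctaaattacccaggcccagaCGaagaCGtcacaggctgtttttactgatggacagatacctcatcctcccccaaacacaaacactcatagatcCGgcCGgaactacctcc
Sema3a: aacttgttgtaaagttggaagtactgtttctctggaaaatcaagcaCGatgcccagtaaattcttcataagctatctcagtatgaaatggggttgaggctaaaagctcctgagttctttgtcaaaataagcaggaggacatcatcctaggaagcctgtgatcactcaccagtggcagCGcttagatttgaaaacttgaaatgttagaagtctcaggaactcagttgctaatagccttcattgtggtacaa
Sema3e: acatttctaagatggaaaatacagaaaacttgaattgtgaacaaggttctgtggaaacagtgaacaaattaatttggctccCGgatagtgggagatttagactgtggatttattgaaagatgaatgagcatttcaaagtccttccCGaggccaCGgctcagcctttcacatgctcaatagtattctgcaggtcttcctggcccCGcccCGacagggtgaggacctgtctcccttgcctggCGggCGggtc
Nrp1: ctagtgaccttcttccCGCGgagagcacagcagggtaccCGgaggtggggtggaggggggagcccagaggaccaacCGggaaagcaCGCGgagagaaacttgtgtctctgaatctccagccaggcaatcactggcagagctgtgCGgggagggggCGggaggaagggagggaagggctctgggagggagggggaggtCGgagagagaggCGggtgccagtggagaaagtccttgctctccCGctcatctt
Nrp2: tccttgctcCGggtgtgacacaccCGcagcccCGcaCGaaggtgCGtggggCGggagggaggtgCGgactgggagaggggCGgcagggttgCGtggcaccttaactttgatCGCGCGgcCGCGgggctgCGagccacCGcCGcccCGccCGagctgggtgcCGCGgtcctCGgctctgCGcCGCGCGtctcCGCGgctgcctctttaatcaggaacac
A CG reads the same on both strands, and 92.1% of the 32851 windows of this length in the table held at least 1, with a median of 6 (quartiles 2 and 16). *Sema3d* had 4, *Sema3a* had 2 and *Sema3e* had 7 in 250 bases, whereas *Sema3c* had 39, a number that 1.56% of all windows reached. Thus the pair that was higher in hippocampus held the CG-richest of these 4 windows and one near the median of all. *Nrp1* had 11 and *Nrp2* had 32 in their 250 bases, and 35.6% and 4.58% of all windows held as many.

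Among the membrane-bound ligands the class 5 genes were both higher in hippocampus. *Sema5a*, whose product carries thrombospondin repeats and restrains synapse formation in the hippocampus, had 73.0 to 116 CPM there (median 104) and 23.2 to 48.2 CPM in cortex (median 33.3). The regions did not overlap, and the difference of 1.48 ± 0.11 had the smallest adjusted *P* value of the 31 genes (4.61e-09). *Sema5b* was higher by 0.46 ± 0.10 (adjusted *P* = 0.000473).

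Class 6 was divided. *Sema6d*, whose product binds PLXNA1, had 90.5 to 121 CPM in hippocampus (median 107) and 57.3 to 79.6 CPM in cortex (median 65.8), without overlap, and differed by 0.64 ± 0.06 (adjusted *P* = 3.04e-08). *Sema6a*, whose product acts on PLXNA2 and PLXNA4, had 58.4 to 94.0 CPM in hippocampus (median 71.5) and 80.6 to 111 CPM in cortex (median 105). It was lower in hippocampus in all 10 mice, although the ranges overlapped, and differed by -0.51 ± 0.07 (adjusted *P* = 3.24e-06). *Sema6c* was also higher in cortex (-0.34, adjusted *P* = 0.00387). *Sema6b* had 0.05 with a 95% interval of -0.05 to 0.14.

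*Sema7a*, whose product binds integrins and PLXNC1, had 179 to 445 CPM in cortex (median 375) and 154 to 241 CPM in hippocampus (median 200.2). The hippocampus value was the lower one in all 10 mice. The ranges overlapped through the cortex of mouse 8, which had the lowest cortex value. The difference was -0.78 ± 0.14 (adjusted *P* = 0.000123), and -0.92 without the cortex of mice 8 and 9.

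Class 4 was the only class of ligands in which no gene passed 0.5. Among the receptors, no class A plexin passed 0.5 either, nor did *Plxnc1*. *Sema4d*, which encodes a ligand of PLXNB1, was higher in hippocampus by 0.45 ± 0.08 (adjusted *P* = 5.23e-05), in all 10 mice. *Sema4a* was higher in cortex (-0.34, adjusted *P* = 0.00364). *Sema4g*, whose product binds PLXNB2, was higher in cortex by the smallest difference that passed (-0.12, adjusted *P* = 0.0393), a call that was lost in 10 of the settings tried, with an adjusted *P* value of up to 0.151. *Sema4b*, *Sema4c* and *Sema4f* lay between -0.13 and 0.11 and did not pass. *Sema4c* was lower in hippocampus in all 10 mice, and with the mouse as a block its difference of -0.13 had an adjusted *P* value of 0.00710.

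Of the 9 plexins 3 were higher in hippocampus (25.3% of all genes), 4 were higher in cortex (25.6% of all genes) and 2 did not pass the test. *Plxnd1*, the receptor of SEMA3E, had 159.7 to 290.3 CPM in cortex (median 264) and 116 to 227 CPM in hippocampus (median 139). It was lower in hippocampus in all 10 mice. The ranges overlapped because the hippocampus of mouse 9 (227 CPM) lay above the cortex of mouse 8 (159.7 CPM) and of WT mouse 2 (210.3 CPM), whereas the other 9 hippocampus libraries held at most 153 CPM. The difference was -0.81 ± 0.12 (adjusted *P* = 1.17e-05), and -0.87 without the cortex of mice 8 and 9.

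*Plxnb3* had 2.65 to 8.01 CPM in hippocampus (median 4.84) and 1.19 to 4.53 CPM in cortex (median 2.38). It was higher in hippocampus in all 10 mice with overlapping ranges, by 0.82 ± 0.21 (adjusted *P* = 0.00247). Without the 7 libraries the difference was 0.57 with an adjusted *P* value of 0.0555. The oligodendrocyte lineage list, which summed to 287 to 587 CPM over all libraries, had 2 of its 7 tested genes higher in hippocampus (25.3% of all genes). Its part in this result was not tested. *Plxnb1* and *Plxnb2*, receptors of class 4 semaphorins, were higher in hippocampus by 0.36 ± 0.04 (adjusted *P* = 5.86e-07) and 0.20 ± 0.04 (adjusted *P* = 0.000652). *Plxna4* (-0.34, adjusted *P* = 0.00266), *Plxna3* (-0.28, adjusted *P* = 0.0269) and *Plxna1* (-0.25, adjusted *P* = 0.00863) were higher in cortex. The call of *Plxna3* was lost without the 7 libraries (adjusted *P* = 0.146). However, *Plxna3* was lower in hippocampus in all 10 mice. With the mouse as a block in edgeR its difference of -0.28 had an adjusted *P* value of 0.000247.

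*Plxnc1*, the receptor of SEMA7A, had 54.5 to 107 CPM in hippocampus (median 74.5) and 44.2 to 98.4 CPM in cortex (median 47.9). The highest cortex values were those of mice 8 (98.4 CPM) and 9 (91.9 CPM), and the other 8 lay between 44.2 and 66.9. Its difference of 0.37 did not pass the test (95% interval 0.03 to 0.71, adjusted *P* = 0.0627). It passed with the mouse as a block (0.40, adjusted *P* = 0.00735) and without the cortex of mice 8 and 9 (0.63, adjusted *P* = 0.000157). *Plxna1* and *Sema4c* share 10.7% and 7.27% of their exon bases with a gene on the opposite strand, and whether the counting used strand is not given in the sources used here.

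Some ligands named above and their receptors differed in opposite directions, which was noticed after the values were seen. *Sema3a* was higher in cortex and its co-receptor gene *Nrp1* in hippocampus, with -1.90 and 2.18. *Sema3f* was higher in cortex and *Nrp2* in hippocampus, with -1.32 and 2.34. In the third pair the ligand *Sema3e* was higher in hippocampus (1.60) and the receptor *Plxnd1* in cortex (-0.81). *Sema6d* (0.64) was higher in hippocampus and *Plxna1* (-0.25) in cortex, and *Sema4g* (-0.12) was higher in cortex and *Plxnb2* (0.20) in hippocampus. For *Sema7a* (-0.78) and *Plxnc1* (0.37) only the ligand passed the test. Other pairs went the same way. *Sema4d* and *Plxnb1* were both higher in hippocampus, *Sema6a* and *Plxna4* were both higher in cortex, and so were *Sema3f* and *Plxna3*. Most class 3 ligands use a neuropilin and a class A plexin. Of these ligands *Sema3c* (1.54) was higher in hippocampus, as were both neuropilins. *Sema3a* was higher in cortex, as were *Plxna1*, *Plxna3* and *Plxna4*.

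The region differences were also taken within each genotype. In WT mice 9 of the 31 genes were higher in hippocampus (18.8% of all genes) and 8 in cortex (18.3% of all genes). In Ube3aOE mice 11 were higher in hippocampus (17.1% of all genes) and 8 in cortex (16.1% of all genes). *Nrp1* differed by 2.62 ± 0.32 in WT and 1.73 ± 0.30 in Ube3aOE mice, and *Sema3a* by -2.39 ± 0.38 and -1.41 ± 0.37. In the test of the interaction of genotype and region in edgeR 0 of the 31 genes passed (0.0% of all genes), and 0 had an unadjusted *P* value under 0.05 (3.77% of all genes). DESeq2 and limma voom also called 0, with 1 and 0 of the 31 genes at an unadjusted *P* value under 0.05. The shares of all genes in these fits are not given here, and DESeq2 gave no *P* value for *Sema3a*. The widest interaction intervals were those of *Nrp2* (-0.97, 95% interval -2.48 to 0.53) and *Sema3a* (0.98, 95% interval -0.12 to 2.08). Without the cortex of mice 8 and 9 the interaction of *Nrp2* changed sign (0.74, 95% interval -0.002 to 1.48), and that of *Nrp1* moved from -0.89 to -0.05. The interaction of *Sema3a* was 0.15 without mouse 9 and 0.34 without the hippocampus of mice 2 and 9 (unadjusted *P* = 0.0180, adjusted *P* = 0.938 in edgeR), where its region difference in Ube3aOE mice was -2.22. With the mouse as a block in edgeR the interaction of 1 of the 31 genes, *Sema3e*, fell under an unadjusted *P* value of 0.05 (-0.48, unadjusted *P* = 0.00468, adjusted *P* = 0.797). The share of all genes in that fit is not given here.

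Genes that act with semaphorin receptors were taken as a list of 45, of which 43 could be tested. Of these, 9 were higher in hippocampus (25.3% of all genes), 20 were higher in cortex (25.6% of all genes) and 14 did not pass, with a median of -0.12 against -0.01 over all genes. *Met*, a receptor tyrosine kinase that can associate with class B plexins, had 112 to 189 CPM in cortex and 19.2 to 81.0 CPM in hippocampus and differed by -2.13 (adjusted *P* = 8.08e-07). *Rnd1*, a small GTPase that binds plexins, differed by -1.13 (adjusted *P* = 2.35e-09), and *Farp1*, a plexin-associated exchange factor, by -0.56 (adjusted *P* = 3.44e-06). *Cntn2* (0.65, adjusted *P* = 8.10e-08), an axonal adhesion molecule, *Erbb2* (0.63, adjusted *P* = 8.45e-05), a kinase partner of class B plexins, and *Mical2* (0.57, adjusted *P* = 4.09e-05), an actin oxidase, were higher in hippocampus.

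Between the genotypes none of the 31 genes passed the test in either tissue. In hippocampus 0 of 31 had an adjusted *P* value under 0.05 (0.00657% of 15220 genes, which is *Ube3a* alone), and the smallest adjusted *P* value was 0.668. *Sema3b*, *Plxnb1* and *Plxnb2*, 3 of the 31, had an unadjusted *P* value under 0.05 (7.21% of all genes). In cortex 0 of 31 passed (0.00669% of 14947 genes, again *Ube3a*), with a smallest adjusted *P* value of 0.960, and 2 had an unadjusted *P* value under 0.05 (4.44% of all genes): *Sema3b* and *Sema3e*. DESeq2 and limma voom also called 0 of the 31 genes in both tissues. They had 3 and 3 genes at an unadjusted *P* value under 0.05 in hippocampus and 4 and 2 in cortex. The shares of all genes in these 2 fits are not given here, so these counts cannot be set against them. DESeq2 gave no *P* value for *Sema3a* in hippocampus. None of the 43 partner genes passed in either tissue, with 2 at an unadjusted *P* value under 0.05 in hippocampus and 4 in cortex.

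For many of the genes the intervals limited the size of a genotype difference. The 95% interval lay inside -0.5 to 0.5 on the log2 scale for 22 of the 31 genes in hippocampus (69.9% of all genes) and for 20 in cortex (73.8% of all genes). The median log2 fold change of the 31 genes was 0.08 in hippocampus and 0.03 in cortex, against 0.00 over all genes in both. *Plxnb1* was 0.15 higher in Ube3aOE hippocampus with an interval of 0.01 to 0.28, and *Sema6b* had 0.04 with an interval of -0.09 to 0.16. The interval reached above 0.5 for *Sema3a*, *Sema3b*, *Sema3f*, *Sema3g*, *Plxnb3*, *Plxnc1*, *Plxnd1* and *Sema4a* in hippocampus, and below -0.5 for *Sema3c*.

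**Figure D5:**
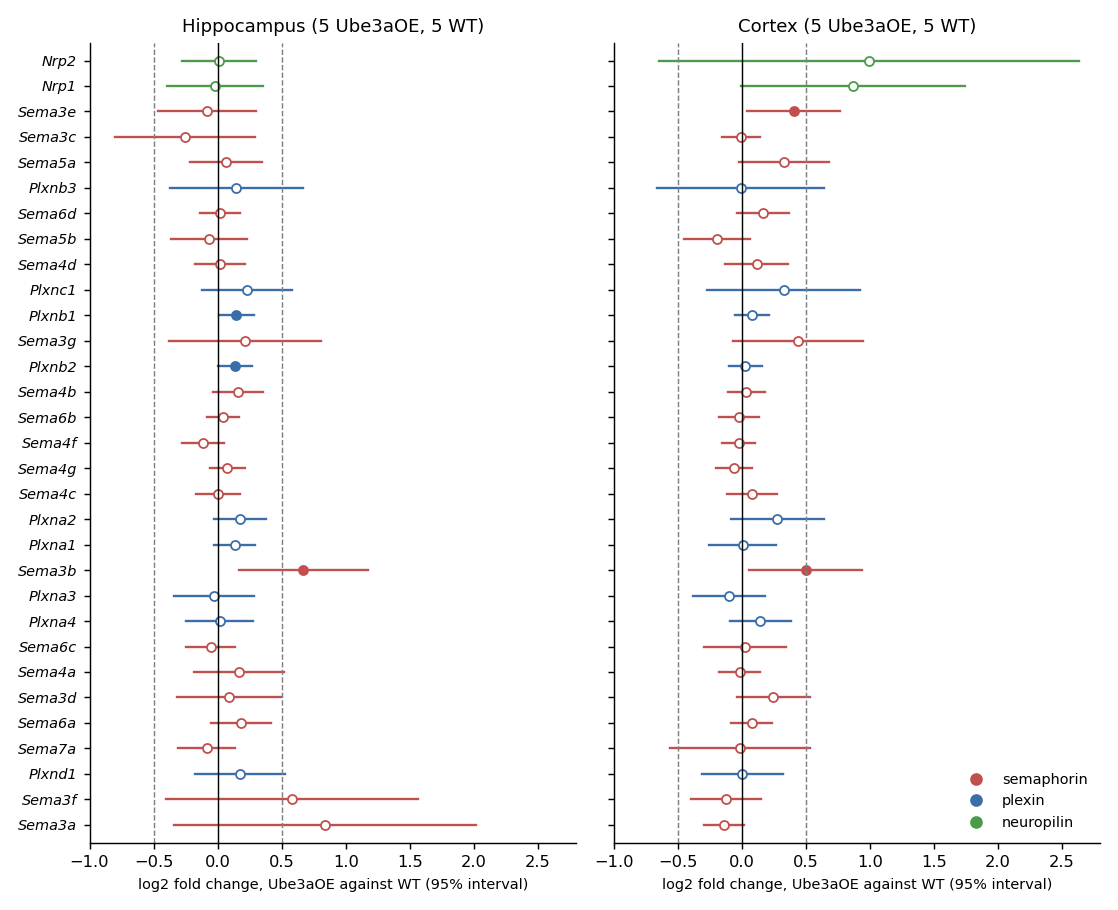
The log2 fold change of Ube3aOE against WT with its 95% interval for the 31 genes, in hippocampus (left) and cortex (right), 5 libraries a group; filled points have an unadjusted *P* value under 0.05, open points do not, and none has an adjusted *P* value under 0.05. The widest intervals are those of *Sema3a* and *Sema3f* in hippocampus and of *Nrp1* and *Nrp2* in cortex.

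*Sema3b* had the smallest unadjusted *P* value of the 31 genes in both tissues. In hippocampus it had 2.29, 1.54, 2.29, 1.73 and 1.97 CPM in WT mice 1 to 5, and 2.64, 5.08, 2.32, 3.02 and 2.57 CPM in Ube3aOE mice 6 to 10. In cortex it had 2.55, 2.82, 2.13, 2.23 and 2.85 CPM in WT mice, and 2.84, 2.76, 5.49, 3.11 and 3.53 CPM in Ube3aOE mice. The hippocampus groups did not overlap, and the cortex groups did. The log2 fold changes were 0.67 ± 0.23 (adjusted *P* = 0.668) and 0.50 ± 0.21 (adjusted *P* = 0.960). In hippocampus the highest value was that of mouse 7, whose library was high in choroid plexus and thalamus markers. The hippocampus libraries of mice 4 and 10, also high in thalamus markers, had 1.73 and 2.57 CPM. Without the hippocampus of mice 2, 4, 7, 9 and 10 the difference was 0.18. In cortex the highest value was that of mouse 8. It also had the highest sum over the meninges and fibroblasts list (319 CPM against 58.0 to 182 in the other cortex libraries). Without the cortex of mice 8 and 9 the difference was 0.28. The part of other tissue in these *Sema3b* values was not tested.

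The largest genotype differences each came with libraries that stood apart. *Sema3a* in hippocampus had 7.23, 11.7, 7.47, 6.28 and 7.20 CPM in WT mice, and 6.77, 8.65, 9.16, 39.1 and 7.77 CPM in Ube3aOE mice. The groups overlapped, and only mouse 9 lay above 12 CPM. Its log2 fold change of 0.84 ± 0.52 (adjusted *P* = 0.701) was 0.02 without mouse 9. The hippocampus library of mouse 9 was high in striatum markers. It also held 743 CPM over the neocortex list, 350 CPM over the choroid plexus list and 769 CPM over the GABAergic neuron list. The part of other tissue or cells in this value was not tested.

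*Sema3f* in hippocampus had 5.29, 16.9, 6.05, 8.75 and 5.22 CPM in WT mice, and 5.69, 14.8, 7.97, 22.1 and 12.9 CPM in Ube3aOE mice. The groups overlapped, with mice 2 and 9 highest in theirs. Its log2 fold change was 0.58 ± 0.44 (adjusted *P* = 0.737), 1.01 without mouse 2, 0.29 without mouse 9, 0.71 without the hippocampus of both and 0.30 without the hippocampus of mice 2, 4, 7, 9 and 10. In cortex, *Nrp1* had a log2 fold change of 0.87 ± 0.39 and *Nrp2* of 0.99 ± 0.72 (adjusted *P* = 0.960 for both), with the values per mouse given above. Without the cortex of mice 8 and 9 that of *Nrp1* was 0.03 and that of *Nrp2* was -0.73. *Sema3e* in cortex had 15.2, 9.05, 10.4, 12.9 and 12.7 CPM in WT mice, and 17.9, 10.2, 18.1, 17.6 and 16.0 CPM in Ube3aOE mice. All Ube3aOE values apart from that of mouse 7 lay above all WT values, and the log2 fold change was 0.40 ± 0.17 (adjusted *P* = 0.960), and 0.28 without the cortex of mice 8 and 9.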

How the data were processed

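Hippocampus and cortex of 10 mice were sequenced as stranded mRNA libraries. The authors deposited raw counts per gene for each library; their processing notes name HISAT2 2.1.0, HTSeq 0.11.2 and GRCm38/mm10, and the annotation and strand setting are not given in the sources used here. The 5 summary lines of unassigned reads were left out. Positions and exon lengths came from GENCODE M21 (47310 of 47729 identifiers matched). Counts were analyzed with edgeR 4.0.16 in R 4.3.3 (TMM, filterByExpr, robust quasi-likelihood *F* test, Benjamini-Hochberg adjustment over all genes tested). Regions and the interaction were tested over all 20 libraries without a term for the mouse, and genotypes over the 10 libraries of each tissue. A gene was called at an adjusted *P* value under 0.05, with 0.5 as the border on the log2 fold change. SEs and 95% intervals came from the *F* statistic. CPM values are TMM-normalized.

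Both tissues with one number came from one mouse per the labels. As a check, deviations of log2 CPM (pseudocount 2) from the group means were correlated between both tissues of each mouse; the median was 0.229 (-0.0179 to 0.352), and 9 of 10 mice were above 0.1.

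The alternatives were DESeq2 1.42.0, limma 3.58.1 (voom), upper quartile scaling, no filter, the mouse as a replicate block, labelled sex as a covariate, all 20 libraries for the genotypes, each mouse left out, the cortex of WT mouse 2 left out, and the longest transcript as the length. Leaving out the libraries with markers of other tissue was chosen after seeing the data. Data were simulated with 200 genes changed, without a shared mouse and without libraries with other tissue. Of genes changed by 0.5 the fit recovered 73.0% (region), 50.3% (genotype in hippocampus) and 45.4% (genotype in cortex). Of those changed by 1 it recovered 92.9%, 79.4% and 81.8%. With changes of 0.5, in the same order, 5.92%, 8.57% and 9.18% of the genes called had not been changed. With changes of 1 these were 4.21%, 3.23% and 3.09%. The 95% intervals held a change of 0.5 for 90.3%, 94.8% and 98.0% of the changed genes, and a change of 1 for 97.4%, 94.7% and 93.8%. These shares need not hold for the real data, where 50.9% of genes differed between the regions. The genes, the partner list and the marker lists were chosen with earlier results of these data known. The genes of the rule may all be named, and of the partners the 6 with the largest region difference past the threshold. Tables and plots were made with Python 3.11.15, pandas 2.3.3 and matplotlib 3.10.9.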

Additional observations from a re-analysis of the deposited data

Results flagged for a closer look

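Among the values of the 31 genes in the 4 groups of 5 libraries, 13 of 124 sets held a sample far from the others of its group by Dixon's criterion, where chance gives about 1 in 20, or 6.2. Of these, 3 concern *Sema3a*: 39.1 CPM in the hippocampus of Ube3aOE mouse 9 (others 6.77 to 9.16), 11.7 CPM in the hippocampus of WT mouse 2 (others 6.28 to 7.47) and 47.3 CPM in the cortex of WT mouse 2 (others 38.8 to 40.6). The hippocampus of WT mouse 2 also had the lowest *Sema5b* of its group (25.7 CPM, others 35.3 to 39.2), and its cortex had the lowest *Sema6a* (80.6 CPM, others 101 to 108). The cortex of Ube3aOE mouse 8 had the lowest *Plxnd1* (159.7 CPM, others 268 to 285) and the highest *Sema3b* (5.49 CPM, others 2.76 to 3.53). In the hippocampus of Ube3aOE mice *Sema3b* was highest in mouse 7 (5.08 CPM, others 2.32 to 3.02) and *Plxna3* in mouse 6 (113 CPM, others 79.3 to 85.4). In the cortex of Ube3aOE mice *Sema3c* was highest in mouse 10 (39.2 CPM, others 31.7 to 33.3), *Sema4b* was highest in mouse 6 (30.7 CPM, others 25.1 to 26.4) and *Sema3e* was lowest in mouse 7 (10.2 CPM, others 16.0 to 18.1). *Sema7a* was highest in the hippocampus of WT mouse 5 (241 CPM, others 188 to 201).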

How the results depend on the processing

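Over all alternatives, 338 counts of called genes stayed within 1.5 times the value given and 2 did not. With 1 mouse left out in turn, the count of genes higher in cortex within Ube3aOE mice ranged from 5 to 9, against 8 with all mice, and reached 5 without mouse 7 and without mouse 10. With 1 mouse left out, 11 to 12 genes were higher in hippocampus and 10 to 13 in cortex over both genotypes. With the mouse as a replicate block these counts were 12 and 13, against 11 and 12, and the block changed no call of a single gene over both genotypes beside those of *Plxnc1* and *Sema4c*. Within WT mice the block gave 11 and 10 genes, against 9 and 8, and within Ube3aOE mice 11 and 9, against 11 and 8. Of the region log2 fold changes of single genes, 556 kept their side of the threshold, 18 lost it and 13 gained it, among *Plxna2*, *Plxna3*, *Plxnb3*, *Plxnc1*, *Sema3b*, *Sema3d*, *Sema4b*, *Sema4c* and *Sema4g*. *Sema6b* changed sign at a value of -6.1e-05 without the 7 libraries. The genotype difference of *Nrp2* in cortex changed sign to -0.73 without the cortex of mice 8 and 9, and its interaction to 0.74 with the same libraries left out and to 0.88 without the 7 libraries. The interaction of *Nrp1* became 0.20 without the 7 libraries. DESeq2 gave no *P* value for *Sema3a* in the tests of the region, of the interaction and of the genotype in hippocampus, and its counts leave that gene out there. Of 62 levels per kb, 42 moved by more than 1 SD when the longest transcript gave the length. Genes under 6 CPM (*Sema3b*, *Sema3g*, *Plxnb3* in cortex) rest on the fewest reads, and their intervals were wide.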
